A study of Danio rerio with 20 samples.

Results

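Glutamate released in nervous tissue is taken back into cells by sodium-driven carriers, and glia turn much of it into glutamine, which neurons can use to make glutamate again. Transaminases move amino groups between glutamate and the carbon skeletons of alanine and aspartate, and glutamate dehydrogenase links glutamate directly to the tricarboxylic acid cycle. In the mammalian central nervous system uptake carriers and glutamine synthetase are best known from astrocytes, and in mouse spinal cord oligodendrocytes also hold glutamine synthetase. In zebrafish larvae slc1a3b is known as a marker of radial astrocytes.

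The 10 genes described here cover these steps: 4 glutamate carriers (slc1a2a, slc1a2b, slc1a3a and slc1a3b), 2 glutamine synthetases (glula and glulb), 3 aminotransferases (gpt, got1 and got2a) and the glutamate dehydrogenase gene glud1b. They are 10 of 32266 genes in the count table and were found by symbol. They were chosen with the lesion-to-sham differences of these same libraries in view. Their differences between the groups are therefore a description: where edgeR's call of one of them is named, it says only on which side of the threshold the fit over all genes put it, and it is not evidence of a difference.

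RNA was sequenced from green cells of adult Tg(olig2:eGFP) zebrafish, a line in which olig2 regulatory sequence drives a green fluorescent protein in the oligodendrocyte lineage. The lesion group is 10 libraries from fish whose spinal cord had been transected 7 days earlier (7 dpl), 5 mm caudal to the junction with the brainstem. The sham group is 10 libraries from fish operated on in the same way with the cord left intact. Per the labels' protocols, each group comprised 9 cords, cut as pieces of about 0.5 mm rostral of the lesion or at the matching level, and living reporter-positive cells were sorted. All fish of both groups carried the reporter. The pieces of a group appear to have been dissociated together, so the 10 libraries of a group may be portions of 1 cell pool, and p-values then measure only the spread between libraries, which may be technical.

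The labels call the sorted cells oligodendrocyte progenitor cells. OLIG2, the lineage factor whose regulatory sequence drives the reporter, had 7490 ± 1352 CPM in lesion and 8302 ± 1163 CPM in sham libraries (mean ± SD, n = 10 each; CPM, the library's counts of a gene after scaling all library totals to a common size), and SOX10, another factor of the lineage, had 672 ± 86.5 and 719 ± 209 CPM in lesion and sham libraries. The myelin gene mbpa was abundant in both groups, at 14622 ± 3260 CPM in lesion and 30587 ± 4757 CPM in sham libraries. Among the listed progenitor markers, GPM6A (ENSDARG00000004621) averaged 3259 CPM in lesion and 5738 CPM in sham libraries, PTPRZ1 (ENSDARG00000020871) 637 and 800 CPM, vcanb 240 and 116 CPM and olig1 152 and 194 CPM in lesion and sham libraries. PDGFRA had a median of 0 CPM in both groups, with counts in 1 lesion and 1 sham library. CSPG4 was low and uneven, with medians of 0.853 CPM in lesion and 1.34 CPM in sham libraries. It had counts in 7 lesion and 6 sham libraries, up to 15.4 and 6.82 CPM. Library totals ran from 7371761 to 9196227 counts in lesion and from 7134670 to 10264810 counts in sham libraries, so that 3 counts, the level up to which a count of 0 allows, are 0.290 to 0.429 CPM. Lesion libraries had counts for 13562 to 16518 genes and sham libraries for 10328 to 13117 genes, without overlap.

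Of the 10 genes, 8 had enough counts to be fitted and 2 did not (slc1a2a and slc1a3b). Gpt, slc1a3a, glula and glulb were lower after lesion, slc1a2b, got1, got2a and glud1b were not called, and none was called higher by edgeR, DESeq2 or limma-voom. The 4 lower genes stand beside 3.24% of the 10467 genes fitted that were called lower, 4.34% called higher and 7.58% called in either direction (edgeR, adjusted p under 0.05). Every lesion library lay below every sham library for 2 of the 8 fitted genes, slc1a3a and gpt, which was the case for 0.554% of all fitted genes. Since the genes were picked from this contrast, nothing is read from these counts. In sorted bulk samples fewer cells that express a gene and less RNA of it per cell cannot be told apart.

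The 10 genes together took 0.496% of all counts in lesion libraries and 1.00% in sham libraries. Most of this was glutamine synthetase, with 0.355% of counts in lesion and 0.709% in sham libraries. On a scale corrected for gene length (CPM per kb of exon), glula came first and glulb second in both groups, and slc1a2a and slc1a3b came last. The places between them differed between the groups: behind the synthetases, slc1a2b and gpt shared a place in lesion libraries, whereas gpt and then slc1a3a came next in sham libraries.

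**Figure D1:**
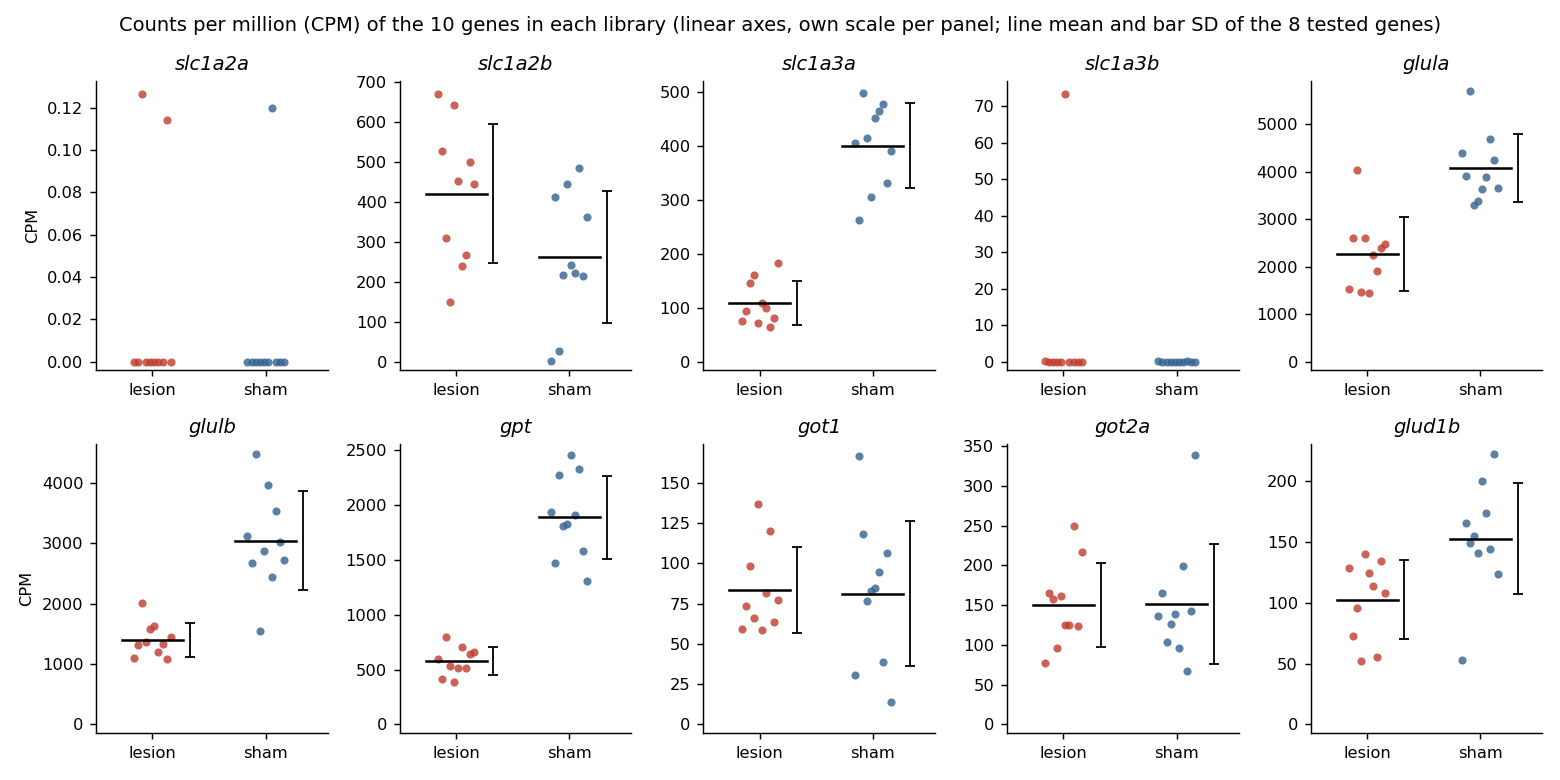
Level of each of the 10 genes in every library, in CPM on a linear axis with its own range per panel, lesion libraries left and sham libraries right. Points are libraries, lines are means and bars SD of the 8 fitted genes; lesion and sham points do not overlap for slc1a3a and gpt, and slc1a3b has a single high point at 73.3 CPM in lesion replicate 6.

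Of the carriers, slc1a3a (ENSDARG00000104431, GRCz10 chromosome 5, 7606712 to 7666984, minus strand) encodes a zebrafish counterpart of the mammalian glial carrier SLC1A3, also known as GLAST or EAAT1. It had 63.8 CPM in the lowest, 97.2 at the median and 184 in the highest lesion library, against 262, 410 and 499 CPM in sham libraries. The groups did not overlap. Its mean was 109 ± 41.2 CPM after lesion and 400 ± 78.8 CPM in sham libraries (SD, n = 10 each), a log2 fold change of -1.88 ± 0.20 (SE), and sham libraries were 3.68-fold higher. Ranked by mean CPM among all genes, slc1a3a stood at place 1550 after lesion and at place 314 in sham libraries.

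The paralog slc1a2b (ENSDARG00000102453, GRCz10 chromosome 25, 36796114 to 36837199, plus strand) corresponds to mammalian SLC1A2, the carrier known as GLT-1 or EAAT2. It had 149 CPM in the lowest, 448 at the median and 668 in the highest lesion library, against 0.931, 232 and 484 CPM in sham libraries. The ranges overlapped widely. Sham replicate 1 had 7 counts and sham replicate 3 had 225 counts of this gene (27.4 CPM), while the other sham libraries and all lesion libraries had 149 CPM or more. Sham replicates 1 and 3 also had the fewest detected genes of all libraries (10723 and 10328). The log2 fold change was 0.68 ± 0.52 (SE), with a 95% interval of -0.34 to 1.70, and the gene was not called. With the number of detected genes per library as a covariate its sign turned, to -1.54.

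Per kb of exon, the slc1a2b level divided by the slc1a3a level in the same library had a median of 1.97 in lesion libraries (range 0.443 to 4.24) and 0.280 in sham libraries (range 0.00109 to 0.748). Slc1a2b was above slc1a3a in 8 of 10 lesion libraries and in 0 of 10 sham libraries. Thus the more abundant carrier of this pair per kb was slc1a2b in most lesion libraries and slc1a3a in all sham libraries. Only lesion replicates 3 and 4, at 0.998 and 0.443, lay under 1, and lesion replicate 4 was the one lesion library inside the sham range. The order depends on the correction for length in both groups. In plain CPM lesion replicate 3 had more slc1a2b than slc1a3a (309 against 147), and lesion replicate 4 had less (149 against 160). In plain CPM slc1a2b was above slc1a3a in sham replicates 2 (413 against 262), 5 (443 against 305) and 8 (484 against 478). It was below slc1a3a in the other sham libraries. Summed CPM of the 4 carriers was 536 ± 163 in lesion and 663 ± 151 in sham libraries, and the groups overlapped.

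The remaining carriers were at or near 0. Slc1a2a (ENSDARG00000052138, GRCz10 chromosome 7, 49590061 to 49608966, plus strand) had 1 count in each of 2 lesion libraries and in 1 sham library, under the 3-count floor. Slc1a3b (ENSDARG00000043148, GRCz10 chromosome 10, 36611214 to 36648728, minus strand) had 529 counts in lesion replicate 6 (73.3 CPM), 1 count over the other 9 lesion libraries and 3 counts over the 10 sham libraries. Its reads therefore come from a single library. It overlaps ALOX5AP on the opposite strand and strand was ignored in counting. ALOX5AP had 0 counts in lesion replicate 6.

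Of 24 astroglial markers, 18 had a count in lesion replicate 6 and 6 had none. Of the 18, 3 were at their highest among the 10 lesion libraries and 13 were above the lesion median. This library was singled out by its slc1a3b counts and the 18 markers by a count in it, so these shares only describe it. FABP7 (ENSDARG00000007697), a fatty acid binding protein of radial glia, had 3274 CPM there against a lesion median of 1967, S100B 626 against 329 and SOX9 (ENSDARG00000043923) 94.2 against 73.9. GFAP, the intermediate filament of astroglia, had 16.9 CPM in it, ninth of the 10, against a lesion median of 114, and ALDH1L1 had 0 against a lesion median of 16.4. AQP4, a water channel of mammalian astrocytes, had no count in any lesion library. The part of astroglial cells in the slc1a3b counts was not tested.

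Glutamine synthetase joins glutamate and ammonia to glutamine. Glula (ENSDARG00000099776, GRCz10 chromosome 2, 19339343 to 19343286, plus strand) had 1456 CPM in the lowest, 2323 at the median and 4046 in the highest lesion library, against 3307, 3898 and 5696 CPM in sham libraries. Only lesion replicate 3, the highest, reached into the sham range. Its log2 fold change was -0.84 ± 0.16 (SE), so that sham libraries were 1.79-fold higher. By mean CPM it was at place 41 of all genes after lesion and at place 16 in sham libraries.

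Glulb (ENSDARG00000100003, GRCz10 chromosome 6, 23709354 to 23714601, plus strand) had 1083 CPM in the lowest, 1349 at the median and 2013 in the highest lesion library, against 1540, 2943 and 4475 CPM in sham libraries. Sham replicate 4 was the only sham library inside the lesion range. The log2 fold change was -1.11 ± 0.15 (SE), with sham libraries 2.16-fold higher. Glulb stood at place 79 of all genes by mean CPM after lesion and at place 24 in sham libraries. Both synthetase genes thus lay among the 100 most abundant in each group.

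Per kb of exon, glula was above glulb in 10 of 10 lesion and 10 of 10 sham libraries. This count depends on the correction for length. In plain CPM glulb was above glula in lesion replicate 6 (1624 against 1456) and in sham replicate 6 (3963 against 3629). The ratio of their levels had a median of 2.15 in lesion (range 1.15 to 2.84) and 1.76 in sham libraries (range 1.17 to 2.74), and the ranges overlapped almost fully. The balance of the paralogs was thus similar in range in both groups while each was lower after lesion. Summed over both, the synthetases had 3679 ± 971 CPM in lesion and 7118 ± 1427 CPM in sham libraries.

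**Figure D2:**
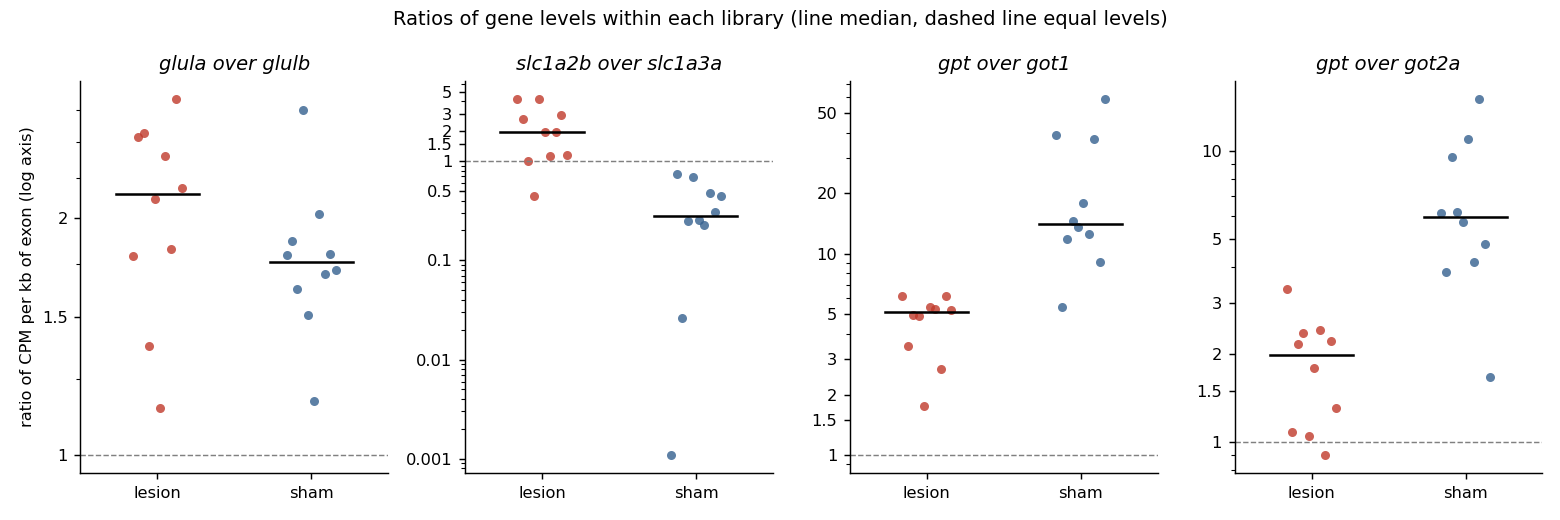
Ratios of gene levels within each library, per kb of exon on a log axis, for glula over glulb, slc1a2b over slc1a3a, gpt over got1 and gpt over got2a, lesion libraries left and sham libraries right. Points are libraries, the line is the median and the dashed line marks equal levels; the slc1a2b to slc1a3a ratio lies above 1 in 8 of 10 lesion and 0 of 10 sham libraries, and both gpt ratios have lower medians after lesion.

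Alanine aminotransferase passes the amino group of alanine to 2-oxoglutarate, giving pyruvate and glutamate, and the reaction runs both ways. Its gene gpt (ENSDARG00000019541, GRCz10 chromosome 2, 3701938 to 3741821, plus strand) had 390 CPM in the lowest, 563 at the median and 793 in the highest lesion library, against 1310, 1869 and 2457 CPM in sham libraries. The groups did not overlap, and the highest lesion library lay well under the lowest sham library. The mean was 576 ± 127 CPM in lesion and 1890 ± 378 CPM in sham libraries, a log2 fold change of -1.71 ± 0.14 (SE), and sham libraries were 3.28-fold higher. Gpt was at place 247 of all genes by mean CPM after lesion and at place 48 in sham libraries. Whether gpt encodes the cytosolic or the mitochondrial enzyme is not stated. Another fitted row with an alanine aminotransferase symbol, GPT2 (ENSDARG00000012199), averaged 76.4 ± 35.7 CPM in lesion and 65.6 ± 41.4 CPM in sham libraries. GPT2 was not called (log2 fold change 0.22 ± 0.37, SE).

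The aspartate aminotransferases exchange amino groups between glutamate and oxaloacetate and are part of the malate-aspartate shuttle. The cytosolic gene got1 (ENSDARG00000039093, GRCz10 chromosome 13, 40311660 to 40331103, plus strand) had 58.6 CPM in the lowest, 75.3 at the median and 137 in the highest lesion library, against 13.7, 83.7 and 167 CPM in sham libraries. All lesion libraries lay within the sham range. The log2 fold change was 0.04 ± 0.33 (SE), and its 95% interval of -0.60 to 0.68 leaves room for a change of either sign.

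Got2a (ENSDARG00000041068, GRCz10 chromosome 18, 21189655 to 21199702, minus strand) is 1 of the paralogs that encode the mitochondrial enzyme. It had 77.0 CPM in the lowest, 142 at the median and 250 in the highest lesion library, against 66.6, 138 and 339 CPM in sham libraries. Here too every lesion library lay within the sham range. The log2 fold change was -0.02 ± 0.25 (SE; 95% interval -0.51 to 0.48). The libraries fall into 2 rows by the letter in their titles, and got2a differed in sign between them, at 0.59 in row A and -0.76 in row B; the difference between the rows was not tested.

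The levels of the aminotransferases were also set against each other within each library. Per kb of exon, gpt over got1 had a median of 5.11 in lesion libraries (range 1.76 to 6.19) and 14.1 in sham libraries (range 5.44 to 58.9). Gpt over got2a had a median of 1.98 in lesion (range 0.900 to 3.35) and 5.92 in sham libraries (range 1.67 to 15.1). Got2a over got1 had a median of 2.53 in lesion (range 1.68 to 3.998) and 2.37 in sham libraries (range 1.24 to 35.2). The ranges of the groups overlapped for all 3 ratios, and the differences were not tested. The sum of the 3 aminotransferases was 809 ± 136 CPM in lesion and 2123 ± 321 CPM in sham libraries, without overlap. By mean CPM in lesion and sham libraries, gpt had 576 and 1890, got1 83.6 and 81.3, and got2a 150 and 152. The separation of the sum thus comes from gpt, as got1 and got2a each overlapped between the groups.

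Glud1b (ENSDARG00000101074, GRCz10 chromosome 12, 25754134 to 25790584, plus strand) encodes glutamate dehydrogenase, which turns glutamate into 2-oxoglutarate and ammonia and back. It had 52.2 CPM in the lowest, 111 at the median and 140 in the highest lesion library, against 52.9, 152 and 222 CPM in sham libraries. The medians differed but sham replicate 1, at 52.9 CPM, lay near the bottom of the lesion range. The log2 fold change was -0.57 ± 0.23 (SE) and the gene was not called. It was called lower only when sham replicate 1 was left out, with a log2 fold change of -0.68. Over all 29 alternative fits its log2 fold change ran from -1.35 to -0.44.

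**Figure D3:**
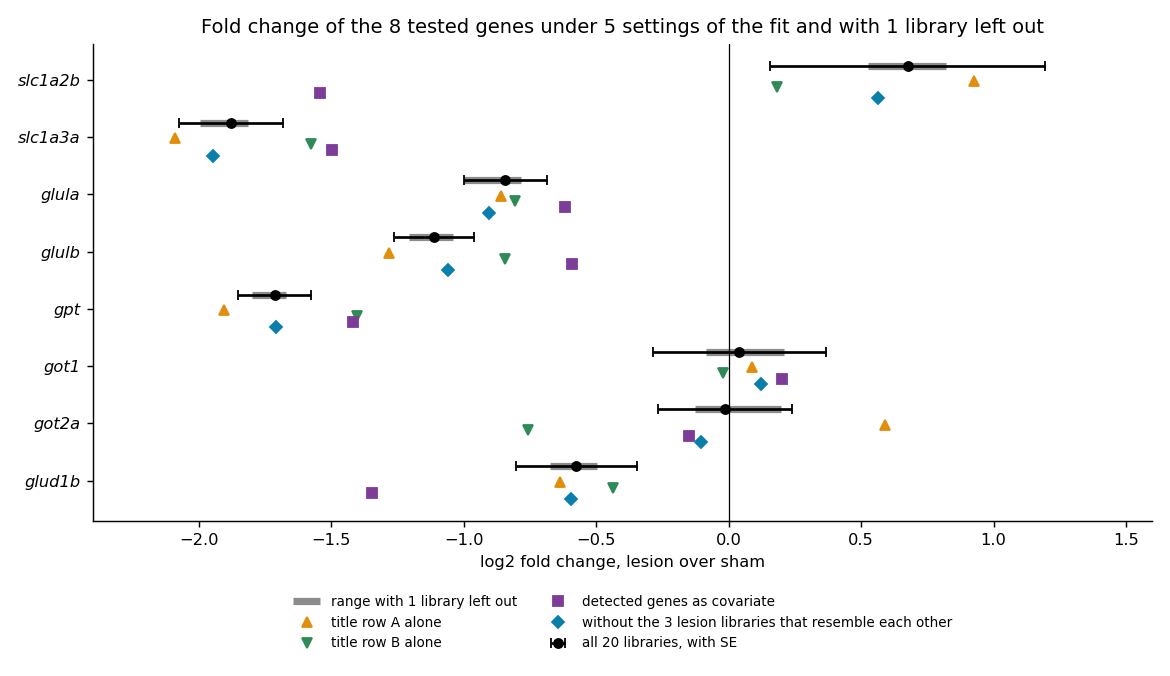
Log2 fold change, lesion over sham, of the 8 fitted genes over all 20 libraries (black point, bar SE), with 1 library left out (grey range), in each title row, with detected genes as covariate and without 3 lesion libraries that resemble each other. Slc1a3a, gpt, glulb and glula stay left of 0 in all of these, slc1a2b turns to -1.54 with the covariate, and the bars of got1 and got2a cross 0.

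In levels per kb of exon, neighbours in the order did not all separate. In lesion libraries glula averaged 1045 ± 356, glulb 505 ± 101, slc1a2b 97.2 ± 40.3 and gpt 96.9 ± 21.3 CPM per kb. Slc1a2b was above gpt in 5 of 10 lesion libraries and got2a (58.3 ± 20.5 CPM per kb) above slc1a3a (53.0 ± 20.1 CPM per kb) in 4 of 10, so neither pair has an order there. Next by mean came glud1b at 38.6 ± 12.2 and got1 at 22.8 ± 7.28 CPM per kb in lesion libraries. Slc1a3a was above glud1b in 7 of 10 lesion libraries, and glud1b was above got1 in 9 of 10.

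In sham libraries glula averaged 1876 ± 330, glulb 1092 ± 294, gpt 318 ± 63.5 and slc1a3a 195 ± 38.4 CPM per kb. Each of these was above the next in 10 of 10 sham libraries. Slc1a2b (60.9 ± 38.2 CPM per kb), got2a (58.9 ± 29.4 CPM per kb) and glud1b (57.5 ± 17.1 CPM per kb) had no order, with 5 of 10 libraries either way between neighbours. Got1 followed with 22.2 ± 12.4 CPM per kb in sham libraries.

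The libraries of row A (6 lesion, 6 sham) and row B (4 lesion, 4 sham) were also fitted apart. Titles also hold a column number, which runs from 1 to 6 in sham and from 7 to 12 in lesion libraries. Title column and lesion therefore cannot be told apart for any gene, and fits by row do not change this. In row A slc1a3a had a log2 fold change of -2.09 and gpt of -1.91, and in row B they had -1.58 and -1.40; both were called in each row. Glula had -0.86 in row A and -0.81 in row B, and glulb had -1.28 in row A and -0.84 in row B, and these were called in row A alone. Slc1a2b had 0.93 in row A and 0.18 in row B and was called in neither.

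The number of detected genes separates the groups, and with it as a covariate the log2 fold changes of the 4 genes were smaller. Slc1a3a had -1.50 and gpt -1.42, and both were still called. Glula had -0.62 and glulb -0.59, and neither was called. Because this covariate does not overlap between lesion and sham libraries, its part and that of the lesion cannot be told apart for any gene. This includes slc1a3a and gpt.

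How the genes vary among libraries of 1 group was not used to choose them, and was examined over the 28 pairs of the 8 fitted genes in each group (log2 of CPM plus 0.5). None of the 56 relations passed Benjamini-Hochberg adjustment, and 2 in lesion and 3 in sham libraries had an unadjusted Pearson p under 0.05 (two-sided permutation tests). The lowest adjusted permutation p was 0.122 for Pearson's r, for gpt with got2a in sham libraries (r = -0.83, p = 0.00218, two-sided permutation test; Spearman's rho = -0.82, p = 0.00588, adjusted p = 0.313; r = -0.70 without the 2 sham libraries farthest from the median of gpt). The same pair had r = -0.11 in lesion libraries (permutation p = 0.75; rho = -0.16). Sham replicate 10 had the least gpt and the most got2a. In lesion libraries the lowest Pearson p was that of slc1a2b with glud1b (r = 0.71, permutation p = 0.0209, adjusted p = 0.436; rho = 0.68, p = 0.0335, adjusted p = 0.313; r = 0.70 without the 2 farthest libraries), and that pair had r = 0.78 and rho = -0.08 in sham libraries (permutation p = 0.0643 and 0.839; r = -0.67 without the 2 farthest libraries). Slc1a3a with gpt, both lower after lesion, had r = 0.68 in sham libraries (permutation p = 0.0309, adjusted p = 0.436; rho = 0.73, p = 0.0207, adjusted p = 0.313; r = 0.75 without the 2 farthest libraries), and r = 0.44 in lesion libraries (permutation p = 0.205).

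Genes whose pattern over libraries was most like that of each fitted gene were found by the mean of Spearman's rho within the 10 lesion and within the 10 sham libraries. The nearest are picked from 10467 genes, so the values describe and carry no p, and libraries share depth and the number of detected genes. Slc1a2b had the closest companions: NPTN, a cell adhesion protein of the immunoglobulin family, with 0.94 in lesion and 0.89 in sham libraries, LHFPL3 with 0.85 in lesion and 0.92 in sham libraries, and lrfn4b with 0.91 in lesion and 0.74 in sham libraries. The same 2 sham libraries in which slc1a2b was lowest had 0 counts of NPTN and of lrfn4b. They were sham replicates 1 and 3, which had the fewest detected genes of all libraries (10723 and 10328). The part of this in the likeness was not tested. NPTN had counts in 8 sham and 10 lesion libraries. Lrfn4b had counts in 7 sham and 8 lesion libraries, so its zeros were not confined to these 2. LHFPL3 had 106 counts in sham replicate 1 and 307 in sham replicate 3.

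**Figure D4:**
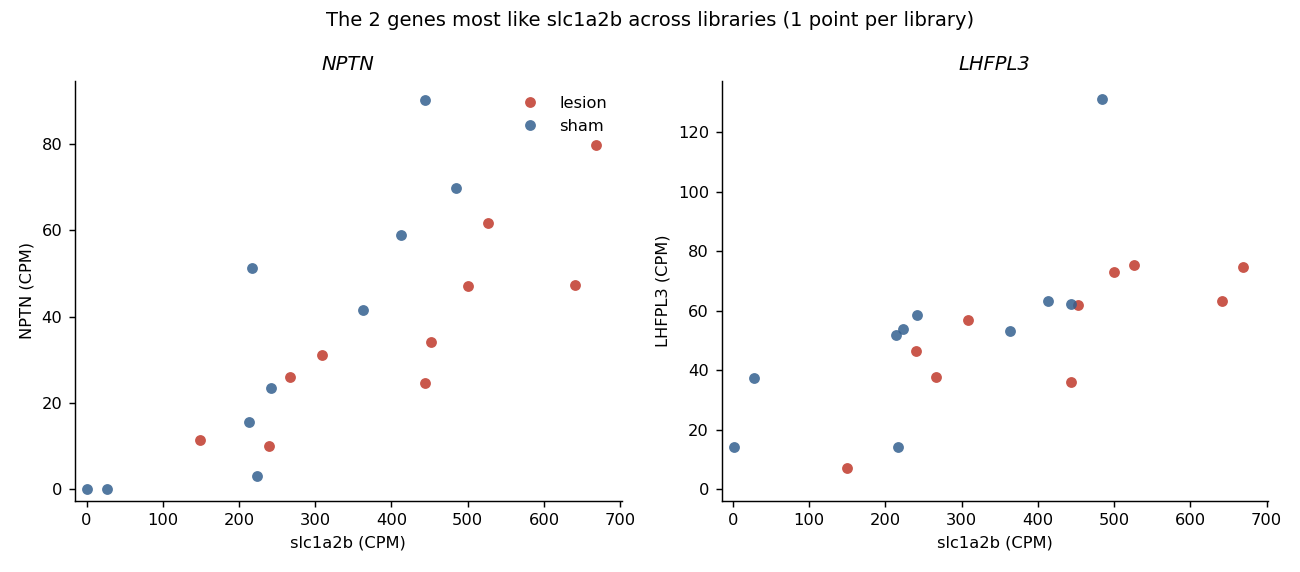
Level of slc1a2b in each library on the horizontal axis against that of NPTN (left) and LHFPL3 (right), in CPM on linear axes, lesion libraries red and sham libraries blue. The 2 sham points at the lower left of the NPTN panel are sham replicates 1 and 3, where NPTN had 0 counts. These libraries had the fewest detected genes of all.

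Nearest to slc1a3a were mzt2b, with a mean rho of 0.82, and CAT, which encodes catalase, with 0.78. CAT fell after lesion (log2 fold change -1.02, edgeR adjusted p = 0.000305), whereas mzt2b was not called. Nearest to gpt were rtn4a, a reticulon of the family known as Nogo, with a mean rho of 0.83, and jam2a, a junctional adhesion molecule, with 0.78. Although near gpt within each group, rtn4a rose after lesion (log2 fold change 0.44, edgeR adjusted p = 0.0202), and jam2a fell (-0.58, edgeR adjusted p = 0.0407). The nearest to glula was ENSDARG00000093349 with 0.82, to glulb APPL2 with 0.78, to got1 ISCU with 0.77, to got2a WDR20 with 0.73 and to glud1b MACROH2A2 with 0.76; none of these was called.

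Lists of other genes of glutamate and amino acid handling gave a background for the 10. They matched 169 further genes, of which 84 had enough counts to be fitted, and 4 rose and 4 fell after lesion (edgeR, adjusted p under 0.05), beside the shares of 4.34% and 3.24% over all genes. Their median log2 fold change was 0.14, against 0.03 over all fitted genes, and 54.8% of them had a positive sign, against 51.6% of all. These lists were assembled with earlier results of the same libraries known.

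All 4 genes that fell were among 15 fitted transporters of other amino acids, and none of those rose. SLC38A2, a sodium-coupled carrier of neutral amino acids that takes up glutamine, had 1251, 1420 and 1773 CPM in the lowest, median and highest lesion library, against 1946, 3658 and 4331 CPM in sham libraries, and the groups did not overlap (log2 fold change -1.27 ± 0.12, edgeR adjusted p = 6.11e-08). SLC7A10 (ENSDARG00000008100), a carrier of small neutral amino acids, averaged 308 ± 141 CPM in lesion and 615 ± 193 CPM in sham libraries (-0.999 ± 0.22, edgeR adjusted p = 0.00328). Its call was lost in 2 of 29 alternative fits, those of row B alone (-0.87, adjusted p = 0.508) and with detected genes as covariate (-0.35, adjusted p = 0.9999).

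Slc3a2a encodes a form of the heavy chain that brings several amino acid exchangers to the membrane. It averaged 123 ± 90.6 CPM in lesion and 308 ± 206 CPM in sham libraries (-1.32 ± 0.38, edgeR adjusted p = 0.0295). That call was lost in 9 of 29 alternative fits, among them the one without sham replicate 10 (log2 fold change -0.996, adjusted p = 0.0869). The other heavy chain row, SLC3A2, had 916 ± 211 CPM in lesion and 639 ± 177 CPM in sham libraries and was not called (0.52 ± 0.16, edgeR adjusted p = 0.0543). Both were among the 15 transporters of the list.

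The genes that rose were PSAT1 and 3 of 21 fitted genes of malate metabolism and the tricarboxylic acid cycle. PSAT1, the serine synthesis aminotransferase that uses glutamate as amino donor, had 148, 234 and 313 CPM in the lowest, median and highest lesion library, against 81.4, 128 and 171 CPM in sham libraries (log2 fold change 0.93 ± 0.18, edgeR adjusted p = 0.000758). It was the 1 called of 7 fitted genes in its list of other aminotransferases and serine synthesis. PHGDH, the first enzyme of serine synthesis, averaged 56.4 ± 26.3 CPM in lesion and 4.74 ± 8.20 CPM in sham libraries and was not called (3.57 ± 1.12, edgeR adjusted p = 0.0519).

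IDH1, the cytosolic isocitrate dehydrogenase that makes 2-oxoglutarate, had 195, 268 and 305 CPM in the lowest, median and highest lesion library, against 39.2, 96.0 and 198 CPM in sham libraries (1.45 ± 0.24, edgeR adjusted p = 0.000184). Only the edges of the groups touched. IDH2, its mitochondrial counterpart, averaged 214 ± 55.7 CPM in lesion and 108 ± 40.8 CPM in sham libraries (0.99 ± 0.29, edgeR adjusted p = 0.0375), and MDH2, the mitochondrial malate dehydrogenase, averaged 303 ± 58.4 CPM in lesion and 198 ± 63.0 CPM in sham libraries (0.61 ± 0.18, edgeR adjusted p = 0.0403). The IDH2 and MDH2 calls stood near the threshold and were lost in 16 and 17 of 29 alternative fits. The calls of PSAT1 and IDH1 were lost in 2 of 29 fits each, those of row B alone (adjusted p = 0.483 and 0.234) and with detected genes as covariate (adjusted p = 0.468 and 0.154). In the list of malate metabolism and the tricarboxylic acid cycle 16 of 21 genes had a positive log2 fold change, with a median of 0.40. Over all fitted genes 51.6% had a positive sign, with a median of 0.03, and 4.34% were called higher. As the list was assembled with earlier results of these libraries known, nothing is read from these counts.

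None of 18 fitted enzymes of glutamate metabolism outside the 10 was called by edgeR, and 0 had an unadjusted p under 0.05, got2b and GCLC being the most abundant. Got2b, the other paralog of the mitochondrial aspartate aminotransferase, had 148 ± 34.1 CPM in lesion and 135 ± 44.4 CPM in sham libraries, and glud1a had 21.8 ± 15.2 CPM in lesion and 22.6 ± 24.0 CPM in sham libraries. Neither SLC1A1 nor SLC1A4, the fitted ones of 8 other genes of the SLC1 family, was called by edgeR. SLC1A4, a neutral amino acid exchanger, had 141 ± 103 CPM in lesion and 98.9 ± 222 CPM in sham libraries (log2 fold change 0.51 ± 0.85). It was called higher by DESeq2 (2.02, adjusted p = 0.0155), by limma-voom (2.91, adjusted p = 0.0434) and by edgeR without sham replicate 2, its highest sham library (2.26, adjusted p = 0.0499). None of 4 fitted mitochondrial carriers and none of 17 glutamate receptors was called by edgeR, and 0 of either had an unadjusted p under 0.05. The listed carriers of synaptic vesicles (SLC17A6, SLC17A7 and SLC17A8) were not fitted, so their change was not tested. SLC17A6 (ENSDARG00000041150) had 696 counts over 6 lesion libraries, with a lesion median of 0.138 CPM, and 0 counts in sham libraries. The receptors had a median log2 fold change of -0.42.

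**Figure D5:**
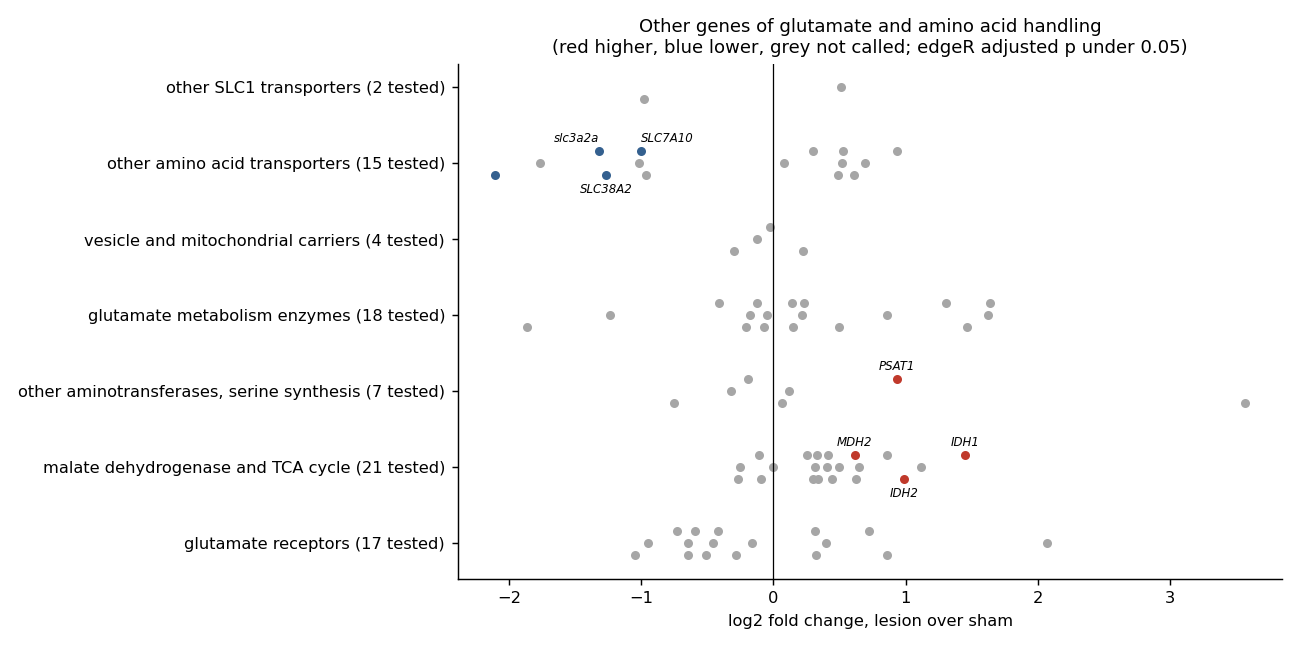
Log2 fold change, lesion over sham, of the 84 fitted genes of the other lists of glutamate and amino acid handling, 1 point a gene and 1 row a list. The 4 genes called lower all lie in the row of other amino acid transporters, and of the 4 called higher, 3 lie in the row of malate dehydrogenase and the cycle.

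Markers of other cells were read beside these values. Over all fitted genes, 4.34% were called higher and 3.24% lower (edgeR, adjusted p under 0.05). Of 14 fitted astroglial markers 4 rose (GFAP, S100B and both VIM rows) and none fell, and the summed list of 24 ran from 3565 to 6670 CPM in lesion and from 2722 to 4343 CPM in sham libraries. Of 12 fitted oligodendrocyte markers 1 rose (mbpb) and 4 fell, among them mbpa, cldnk and TSPAN2, and the summed list of 13 ran from 44590 to 93059 CPM in lesion and from 67888 to 115215 CPM in sham libraries. Of 14 fitted progenitor markers 1 rose (vcanb) and 1 fell (GPM6A), with sums over 18 genes of 9488 to 15104 CPM in lesion and 14284 to 17602 CPM in sham libraries. Both PTPRZ1 rows stand in the astroglial and in the progenitor list, so they enter both sums. The part of these cell types in the levels of the 10 genes was not tested.

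Neuron markers, of which 2 of 14 fitted rose (tubb5 and GNG3), summed over 25 genes to 1238 to 2857 CPM in lesion and 619 to 1463 CPM in sham libraries. Of 10 ependymal markers 3 were fitted and FOXJ1 rose, with sums of 15.6 to 449 CPM in lesion and 0.124 to 27.5 CPM in sham libraries. Of 17 microglial and macrophage markers 2 were fitted and apoeb rose; without apoeb the other 16 summed to 0.253 to 530 CPM in lesion and 0 to 171 CPM in sham libraries, and LCP1, c1qa and c1qb had no count in any library. None of 3 fitted endothelial and mural markers (of 18) and none of 4 fitted Schwann cell markers (of 11) was called by edgeR. Of these, 0 endothelial and mural and 2 Schwann cell markers had an unadjusted edgeR p under 0.05. Of 9 erythrocyte markers 1 was fitted, cahz, which fell from a mean of 719 CPM in sham to 338 CPM in lesion libraries. The globin genes hbaa1, hbaa2, hbae1.1 and hbae5 had no count in any library, and hbae3 had 22 counts, all in 1 lesion library. The listed globin genes hbba1 and hbba2 had no match. The part of erythrocytes in the fall of cahz was not tested. The sums of the endothelial list were 48.8 to 286 CPM in lesion and 37.1 to 212 CPM in sham libraries.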

How the data were processed

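Messenger RNA of 10 lesion and 10 sham libraries was read from 1 deposited table of counts made by the authors. The submitters' processing notes name bcl2fastq 2.19.1, GSNAP, featureCounts 1.6.2 and build GRCz10. Ensembl release 87, a mapping quality minimum of 1 and strand setting 0 are given per the file headers. Strand was thus ignored, so that reads of genes that overlap on opposite strands cannot be told apart by strand. Such reads may be mixed between the genes or dropped, and reads that paralogs have in common may be split or dropped. The deposited table also gives the exon length of each gene, used here for levels per kb. Of 32358 rows, 92 spike-in rows with 2 counts were left out. Columns were matched to samples by title.

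Symbols came from a table that names 26433 of 32266 genes. It gives both paralogs 1 symbol, so the letters a and b were assigned by the 25 genes on each side, shared with the RefSeq annotation of GRCz12tu (slc1a2b, for example, shared 21 of 30 neighbours compared). A second row with the symbol GPT, with 2 counts, is not the gpt described, and RefSeq lists gpt2 among the synonyms of gpt.

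CPM were computed with TMM normalization factors (trimmed mean of M values). Lesion and sham were compared in R 4.3.3 with edgeR 4.0.16 (quasi-likelihood F test after filterByExpr and TMM, group as the only term, two-sided), with Benjamini-Hochberg adjustment over 10467 genes and a threshold of 0.05; it was tested on simulated data. Each standard error is the size of the log2 fold change over the square root of F, and 95% intervals use 1.96 SE. Within-group correlations used 100000 resamples (Python 3.11.15, numpy 2.4.6). DESeq2 1.42.0 and limma 3.58.1 served as alternatives. No pair of libraries agreed within sampling noise (lowest chi-square per degree of freedom 64.0). Floors and counting limits cover counting error only.

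Named are all 10 genes and the called members of each pathway list, or else its 2 most abundant. Also named are the 3 genes most like each fitted gene, and defining markers. PHGDH, SLC3A2, glud1a and GPT2 were added after their values were seen. Some named genes are counted but not reported singly here. Of 329 listed symbols 24 had no match. The genes and lists were chosen with earlier results of these data known.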

Additional observations from a re-analysis of the deposited data

Results flagged for a closer look

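In groups of 10 libraries, single libraries stood far from the others for 12 of 54 gene and group combinations examined, the gap to the nearest library as a share of the group's range exceeding Dixon's critical value. Chance flags about 1 in 20 groups with normally spread values, and levels near 0 are not so spread. Of the 10 genes, slc1a3b had 73.3 CPM in lesion replicate 6 (529 counts) with a lesion median of 0, and 0.286 CPM (2 counts) in sham replicate 8. Slc1a2a had 0.120 CPM (1 count) in sham replicate 7. Glula had 4046 CPM in lesion replicate 3, with a lesion median of 2323 CPM, and got2a had 339 CPM in sham replicate 10, with a sham median of 138 CPM. The last of these is also the library with the lowest got1.

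Among the other genes, SLC1A4 had 395 CPM in lesion replicate 7, with a lesion median of 119 CPM, and 726 CPM in sham replicate 2, with a sham median of 25.4 CPM. SLC38A2 was lowest in sham replicate 2 at 1946 CPM, with a sham median of 3658 CPM. SLC7A10 had 662 CPM in lesion replicate 3 (lesion median 248 CPM), and slc3a2a had 860 CPM in sham replicate 10 (sham median 263 CPM). In sham replicate 3 BCAT1 was highest at 632 CPM (sham median 363 CPM) and IDH2 lowest at 9.49 CPM (sham median 117 CPM).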

How the results depend on the processing

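Slc1a3a and gpt had log2 fold changes of -2.09 to -1.50 and -1.91 to -1.40 over 29 alternatives and were called in each; the genes were chosen from this contrast, so this is no support for a difference. Of the 10 genes, 2 were called lower in row B alone and 2 with detected genes as covariate, and leaving out 1 library gave 4 to 5 lower and 0 higher. Without a filter on low counts 1 was called higher, slc1a3b, whose counts come from 1 library. Of all genes, 454 were called higher and 339 lower. DESeq2 size factors gave 408 and 399, DESeq2's test 541 and 562, limma-voom 1380 and 387, no filter 2780 and 758, row A 336 and 201, row B 207 and 40, and the covariate 140 and 36; leaving out 1 library gave 395 to 511 higher and 295 to 382 lower. Of the other pathway genes (4 higher, 4 lower), size factors gave 2 higher, limma-voom 12, no filter 18, row A 2 with 2 lower, row B 0 with 1 lower, the covariate 0 with 1 lower, and the fit without 3 lesion libraries (replicates 2, 9 and 10) 2 higher; leaving out 1 library gave 2 to 5 higher and 3 to 4 lower. The causes were not tested.

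Signs turned for uncalled genes. With the covariate slc1a2b had -1.54, SLC1A4 -0.21, GCLC 0.073, got2b -0.29, BCAT1 0.50 and GRIN1 (ENSDARG00000027828) -5.01. In row B got1 had -0.021, SLC1A4 -0.41, got2b -0.21 and GRIN1 -2.26; in row A got2a had 0.59 and SLC25A12 0.082. Got1 had -0.0377 with size factors and -0.0377 by DESeq2. By limma-voom got2a had 0.052, SLC1A1 0.35, SLC25A12 0.087 and GRIA2 (ENSDARG00000052765) 0.029. With the title row as covariate got2a had 0.045 and GRIN1 -0.17, and GRIN1 had -0.19 without the 3 lesion libraries. Leaving out 1 library gave -0.087 to 0.21 for got1, -0.13 to 0.20 for got2a and -0.14 to 0.094 for SLC25A12. Single libraries ended 3 pathway calls: MDH2 without any of 11 libraries (adjusted p up to 0.0877), IDH2 without any of 11 (up to 0.0876) and slc3a2a without any of 5 (up to 0.0869). No paired analysis was possible because the labels number no replicates; the numbers used here follow the order of deposit and only name libraries. Depth limits slc1a2a and the sham level of slc1a3b, which lie at or under 3 counts.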
